A study of Mus musculus with 2 samples.

Results

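The 8 genes described here encode enzymes of cholesterol synthesis, and they were chosen by symbol, in the order of the reactions, from the 43346 Ensembl gene rows of the deposited tables. The members are Hmgcs1, Idi1, Fdps, Fdft1, Sqle, Lss, Cyp51 and Msmo1, and all 8 were found by their Ensembl identifier. The tissue was liver from mouse embryos of strain B6NCrl at embryonic day 11.5, labelled healthy and with no genetic modification named, and male and female embryos were pooled. There were 2 libraries of 1 group, 1 from each of 2 biological replicates. The labels name 109 embryos for replicate 1 and a pool of unstated size for replicate 2, and both pools carry the same donor label. Each library was made by a SmartSeq protocol from 1 cell-equivalent of RNA longer than 200 bases, so the libraries are titled single-cell although their source is pooled tissue. The labels give no treatment and no second condition, so levels within the tissue and differences between the 2 libraries are described. With 1 library on each side, a difference between the libraries has no test, and none was made between genes.

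Cells build cholesterol from acetyl-CoA. The early enzymes make mevalonate and then the isoprenoid farnesyl diphosphate, from which other pathways also branch. Squalene synthase commits farnesyl diphosphate to sterols, squalene is oxidised and closed into lanosterol, and the late enzymes trim lanosterol to cholesterol. Most genes of the pathway are known targets of the transcription factor SREBP-2, which binds sterol elements in promoters when sterol is low, often beside bound NF-Y, and the liver is a main site of this synthesis in the adult.

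Promoter sequences are shown for 3 members that stand for different results below. Hmgcs1 held the sterol element searched for, Msmo1 had nearly the same level in both libraries, and Lss was read almost entirely in replicate 1. The sequences are from RefSeq on build GRCm38.p6 and read 5′ to 3′ on the gene's strand. They cover the 250 bases before the RefSeq start of transcription. The gene coordinates given below are from GENCODE, whose starts differ from those of RefSeq. For Msmo1 and Lss the GENCODE starts, 64733792 and 76531588, lie inside the printed windows, so part of each window is within the annotated gene. The same holds for the windows of Idi1 and Cyp51 searched below. Capitals mark CCAAT, the motif bound by NF-Y, on either strand, and in Hmgcs1 also the core of a sterol element, TCACNCCAC. Hmgcs1 lies on the plus strand at chr13:119690101-119690350, Msmo1 on the minus strand at chr8:64733579-64733828 and Lss on the plus strand at chr10:76531355-76531604.
Hmgcs1: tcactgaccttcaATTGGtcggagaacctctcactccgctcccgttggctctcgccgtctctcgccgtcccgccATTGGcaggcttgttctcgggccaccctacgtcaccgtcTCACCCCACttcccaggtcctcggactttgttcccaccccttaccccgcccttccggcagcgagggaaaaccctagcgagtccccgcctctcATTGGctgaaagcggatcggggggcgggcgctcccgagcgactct
Msmo1: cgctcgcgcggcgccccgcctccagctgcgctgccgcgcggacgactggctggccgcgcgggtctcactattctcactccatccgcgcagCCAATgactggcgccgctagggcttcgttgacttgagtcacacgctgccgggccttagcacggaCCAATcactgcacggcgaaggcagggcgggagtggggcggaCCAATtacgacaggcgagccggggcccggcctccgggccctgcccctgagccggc
Lss: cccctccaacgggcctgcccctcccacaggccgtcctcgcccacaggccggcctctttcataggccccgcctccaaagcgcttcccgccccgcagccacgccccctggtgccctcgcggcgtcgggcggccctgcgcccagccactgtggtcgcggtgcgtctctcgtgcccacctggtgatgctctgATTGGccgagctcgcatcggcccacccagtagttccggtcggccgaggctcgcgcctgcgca

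The promoter table held 5 of the 8 members, namely Hmgcs1, Idi1, Lss, Cyp51 and Msmo1. In the whole window of 300 bases, which runs 50 bases past the start, all 5 held CCAAT on at least 1 strand, against 37.4% of 32851 promoters of that length. All 5 also held GGGCGG, the GC box bound by Sp1, against 35.7% of promoters. A CCAAT motif and a GC box cannot overlap on 1 strand, because neither begins with letters that end the other, while on opposite strands they can share bases. TCACNCCAC was found in Hmgcs1 alone of the 5, starting at position -137 from the start of transcription, against 1.24% of all promoters. Hmgcs1 had 4 CCAAT motifs in its window, of which 3 are in the printed part, Msmo1 had 3, Idi1 had 2, and Lss and Cyp51 had 1 each. In the wider pathway, 15 of 18 genes with a promoter held CCAAT in at least 1 promoter, against 41.1% of 27025 genes. TCACNCCAC was held by 1 of the 18, Hmgcs1, against 1.44% of genes. Only this 1 pattern was searched, so a promoter without a match is not shown to lack a sterol element. These matches describe letters in a window, and no measurement of binding was made.

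Depth was similar in the 2 libraries, with total expected counts of 33289699 in replicate 1 and 32607453 in replicate 2, and spike-in RNAs took 5.83% and 7.68% of all TPM (a level scaled for transcript length and library depth). The liver label was checked against fixed markers. Hepatoblast markers, of the precursors of hepatocytes, summed to 11438 TPM in replicate 1 and 9917 in replicate 2, with 8 of 9 at 1 TPM or more in both, and erythroid markers summed to 29323 and 27857 TPM, with 8 of 8. For other cells, the sums of heart muscle, mesenchymal and macrophage markers differed by over 2-fold between the libraries. The 5 heart muscle markers summed to 6.69 and 205 TPM, the 4 mesenchymal markers to 166 and 424, the 5 macrophage markers to 414 and 171, the 5 endothelial markers to 88.9 and 97.5, and the 4 megakaryocyte markers to 959 and 1193. Hnf4a, a hepatoblast marker, had 34.8 TPM in replicate 1 and no read in replicate 2, as did the macrophage marker Csf1r with 23.5. Adgre1, alone of the macrophage markers, was higher in replicate 2, with 2.83 and 7.92 TPM. All 4 markers of steroid-making adrenal and gonad cells, Star, Cyp11a1, Hsd3b1 and Nr5a1, were at 0 reads in both. The part of cell makeup in the differences below was not tested. With 1 cell-equivalent of pooled RNA, fewer cells of a type, less RNA per cell and molecules missed at this input cannot be told apart.

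Most members were detected in both libraries. A level of at least 1 TPM in both was measured for 7 of the 8 members, where 15.0% of all Ensembl genes and 27.3% of protein-coding genes reached it, and Lss was the exception. The members together had 593 TPM in replicate 1 and 607 in replicate 2, a sum of 600.3 ± 9.87 TPM (SD, n = 2). Their median level was 5.09 on the log2(TPM + 1) scale, beside 3.49 over the 10351 genes with a mean of at least 1 TPM. The 9 enzymes of haem synthesis and the 17 genes of the citric acid cycle had medians of 7.23 and 7.28 and were all at 1 TPM or more in both libraries.

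The sum was nearly equal in the 2 libraries, while sums over parts of the member list differed. Each part holds 2 or 3 members and was not among the planned results, so single genes can move its sum. Other pathway genes of the same steps, given below, are not in these sums, which do not describe whole arms of the pathway. Over all genes with a mean of at least 10 TPM, 51.1% differed by more than 2-fold between the libraries. Hmgcs1, Idi1 and Fdps, which lead to farnesyl diphosphate, summed to 319.5 TPM in replicate 1 and 368 in replicate 2. Fdft1, Sqle and Lss, which lead from there to lanosterol, summed to 98.3 and 21.4 TPM, or 16.6% and 3.52% of the members' total. Cyp51 and Msmo1, which act on lanosterol and its products, summed to 175 and 218 TPM.

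**Figure D1:**
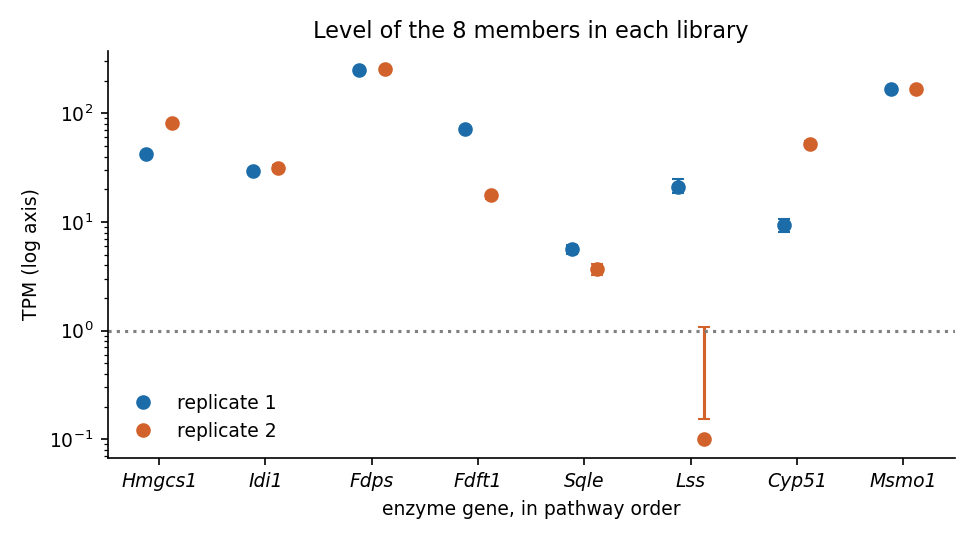
Level of each of the 8 genes in pathway order, as TPM on a log axis, with 1 point per library (n = 2 libraries). Bars are the deposited credibility bounds around the posterior mean estimate, which for Lss in replicate 2, with 4 reads, lie above the TPM of 0.1, and the dotted line marks 1 TPM. Fdps, Msmo1 and Idi1 sit together in both libraries, while Fdft1, Lss, Cyp51 and Hmgcs1 sit apart.

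Hmgcs1 encodes the cytosolic HMG-CoA synthase, an enzyme of the mevalonate arm (chromosome 13, 119690379 to 119708260, plus strand; mm10 here and for all gene coordinates). It had 42.0 TPM from 3894 reads in replicate 1 and 82.1 TPM from 7560 reads in replicate 2. Replicate 2 was higher by 0.92 on the centred log2 scale, just inside the 2-fold rule of size used here. The difference far exceeded the credibility bounds of the estimates, 40.0 to 42.6 and 78.8 to 82.5 TPM, which cover read counting and assignment only. Over the 2477 other genes within a factor of 2 of its mean level, the median absolute log2 difference was also 0.92. The antisense gene Gm48342 is identical to Hmgcs1 over 460 aligned bases and had no values, so its part in the Hmgcs1 value was not tested.

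Idi1, the isomerase that interconverts the isoprenoid building blocks (chromosome 13, 8885501 to 8892451, plus strand), was among the steadiest members. It had 29.6 TPM from 2563 reads and 31.7 TPM from 2722 reads, a log2 difference of 0.07 beside a median absolute difference of 1.29 over 3333 genes of like level. Its paralog Idi2, known from skeletal muscle, had no read in either library. Of 4 genes at least 90% identical to Idi1 over 200 bases or more, only 1 had values. This was the processed pseudogene Gm13502, identical to Idi1 over 684 aligned bases, with 31.4 and 139.7 reads. A small part of the reads may be split between Gm13502 and Idi1. The part of the unmeasured copies in the Idi1 value was not tested.

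Fdps makes farnesyl diphosphate and was the highest member in both libraries (chromosome 3, 89093588 to 89101959, minus strand). It had 248 TPM from 8368 reads and 254 TPM from 8514 reads, or 250.8 ± 4.16 TPM (SD, n = 2), and stood above 92.8% of the genes detected at 1 TPM or more in each library. The log2 difference of 0.01 compares with a median absolute difference of 0.51 over 917 genes of like level. Fdps exceeded Idi1 by 8.19 ± 0.250 times and Sqle by 56.4 ± 17.4 times (SD, n = 2). Of 6 near copies of Fdps, each at least 90% identical over 200 bases or more, 3 processed pseudogenes were measured. These held 79.2 and 74.1 reads in sum, so their share was small. The other copies had no values. Among them, the coding Gm43738 is identical over 751 aligned bases and overlaps Fdps on the same strand. The part of the unmeasured copies in the Fdps value was not tested.

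Fdft1, squalene synthase, catalyses the committed step towards sterols (chromosome 14, 63145150 to 63179578, minus strand). It had 71.6 TPM from 5843 reads in replicate 1 and 17.6 TPM from 1429 reads in replicate 2, so replicate 1 was 4.07 times higher. The centred log2 ratio of replicate 2 over replicate 1 was -1.99, against a median absolute difference of 1.04 and an upper quartile of 2.05 over 2933 genes of like level. Fdft1 overlaps the cathepsin B gene Ctsb at its end, on the opposite strand, with 771 bases of shared transcript sequence. Ctsb also had its higher value in replicate 1, with 271 TPM in replicate 1 and 103 in replicate 2. The counting is not stated to use strand, so reads of the 2 genes in the overlap cannot be told apart, and the part of Ctsb in the Fdft1 value was not tested.

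Sqle, squalene epoxidase, is known as a point of control of the pathway (chromosome 15, 59315077 to 59331192, plus strand). It was the lowest member on average, with 5.62 TPM from 430 reads and 3.69 TPM from 275 reads, or 4.66 ± 1.36 TPM (SD, n = 2). Its log2 ratio of -0.52 is given outside the count of differences, since its mean lay below the 10 TPM required there. Genes at this level differed widely, with a median absolute difference of 2.95 over 2545 genes.

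Lss, lanosterol synthase, closes the sterol rings (chromosome 10, 76531588 to 76557138, plus strand). It had 21.1 TPM from 2411 reads in replicate 1 and 0.1 TPM from 4 reads in replicate 2. The centred log2 ratio was -4.36, beside a median absolute difference of 3.59 over 3638 genes of like level. Its share of reads was 590.4 times higher in replicate 1, with an exact 95% interval of 230.3 to 2169 that covers read counting only. Reads amplified from 1 molecule are not independent, so that interval does not bound a difference in RNA. Such values were frequent at this level: in a range chosen after the values were seen, of 3307 genes at 10 to 40 TPM in replicate 1, 33.4% were under 1 TPM in replicate 2. The members in that range were Lss and Idi1, of which Lss alone was under 1 TPM.

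Cyp51, lanosterol demethylase, begins the trimming of lanosterol (chromosome 5, 4081145 to 4104746, minus strand). It went the other way, with 9.46 TPM from 550 reads in replicate 1 and 52.0 TPM from 5748 reads in replicate 2. The centred log2 ratio was 2.32, beside a median absolute difference of 1.28 and an upper quartile of 3.51 over 3327 genes of like level. The reads differed by 10.5 times and TPM by 5.49 times, because the estimated effective length was 1968 bases in replicate 1 and 3765 in replicate 2. Its end overlaps that of Akap9 on the opposite strand, which had 5.56 and 3.45 TPM.

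Msmo1, the methylsterol oxidase that acts after Cyp51 (chromosome 8, 64718139 to 64733792, minus strand), was second to Fdps in both libraries. It had 166.0 TPM from 7573 reads and 166.4 TPM from 8998 reads, a log2 difference of -0.02 beside a median absolute difference of 0.60 over 1263 genes of like level. Here too the reads differed more than TPM, by 1.19 times, with effective lengths of 1543 and 1841 bases. Fdps exceeded Msmo1 by 1.51 ± 0.0225 times (SD, n = 2).

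The order of the levels by mean TPM was Fdps, Msmo1, Hmgcs1, Fdft1, Cyp51, Idi1, Lss and Sqle. The values of Fdps and Msmo1, of Msmo1 and Hmgcs1, and of Idi1 and Lss did not overlap over the 2 libraries. Neighbours from Hmgcs1 to Idi1, and Lss and Sqle, did overlap, so their order was not resolved. Of the 28 pairs of members, 22 had the same order in both libraries. Cyp51 stood at place 7 in replicate 1 and 4 in replicate 2, and Fdft1 at places 3 and 6. No test of the order was made.

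Of the 7 members with a mean of at least 10 TPM, 3 differed by more than 2-fold between the libraries, where 51.1% of 6801 genes did. Fdft1 and Lss were higher in replicate 1, a direction seen for 25.8% of genes, and Cyp51 was higher in replicate 2, a direction seen for 25.2%. The other 4, Hmgcs1, Idi1, Fdps and Msmo1, stayed within 2-fold. Centred on the spike-ins instead, the same 3 members were past 2-fold. Of the genes past 2-fold under that centring, 37.6% were higher in replicate 2, against 49.4% of those past 2-fold here. The median log2 ratio of the 7 was 0.01 and their median absolute ratio 0.92, against 1.03 over all 6801 genes. For haem synthesis 1 of 9 genes and for the citric acid cycle 5 of 17 differed by more than 2-fold. With 1 library per replicate, no difference between libraries has a replicate check.

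**Figure D2:**
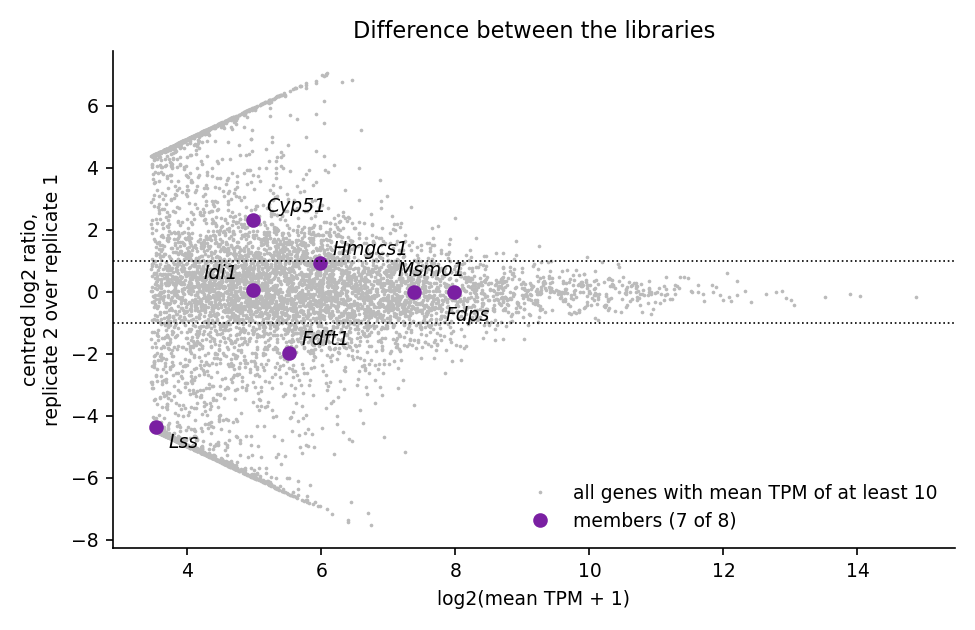
Centred log2 ratio of replicate 2 over replicate 1 against log2 of the mean level plus 1, for 6801 genes (grey) and 7 members (purple), 1 point per gene. Dotted lines mark a 2-fold difference, past which lie Cyp51 at 2.32, Fdft1 at -1.99 and Lss at -4.36. The dense edges of the cloud are genes with nearly all of their reads in 1 library.

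The transcript tables show that equal gene levels could be made of different transcripts. Hmgcs1, Fdps and Fdft1 have 1 transcript in the tables, and Idi1 had reads on 1 of its 5 only. Of the 4 members with a mean of at least 10 TPM and 2 or more transcripts, 2 had the same leading transcript in both libraries, Idi1 and Msmo1, where 62.4% of 4448 such genes did. With Sqle and the 3 genes of a single transcript, 6 of 8 members kept their leading transcript by TPM, and 7 of 8 by reads, where Cyp51 also kept it. The 3 genes of a single transcript could not change theirs, and no share over all genes was taken for these counts.

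For Msmo1 the leading transcript was the coding Msmo1-201, with 81.5 TPM or 49.1% of the gene in replicate 1 and 93.3 TPM or 56.1% in replicate 2. The noncoding Msmo1-206 took 75.3 and 51.8 TPM. The intron-retaining Msmo1-203 had 0.01 TPM from 1.09 reads in replicate 1 and 21.3 TPM from 1794 reads in replicate 2. Summed over its protein-coding transcripts, Msmo1 had 90.6 and 93.3 TPM, so the close match of the libraries also held for coding transcripts alone.

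For Cyp51 the leading transcript differed between the libraries by TPM but not by reads. The coding Cyp51-201 held 37.8% of the gene in replicate 1 and 97.9% in replicate 2, with 3.58 and 50.9 TPM. The short intron-retaining Cyp51-203 held 62.2% and 1.54%, from 145 and 19.7 reads. By reads, Cyp51-201 led in both, with 405 reads in replicate 1 and 5724 in replicate 2. Without centring, the log2 ratio was 3.50 on coding transcripts alone and 2.34 on all.

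In replicate 1, the coding Lss-201 held 77.9% of Lss with 2222 reads, and intron-retaining and noncoding transcripts the rest. The 4 reads of replicate 2 were all assigned to the intron-retaining Lss-205 and Lss-204, with none on a coding transcript. For Sqle, the coding Sqle-202 led in both, at 67.7% and all of the gene, and the coding Sqle-201 held 31.7% in replicate 1 and had no read in replicate 2. These shares are estimates from read assignment, and Lss and Sqle rest on few reads in replicate 2.

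**Figure D3:**
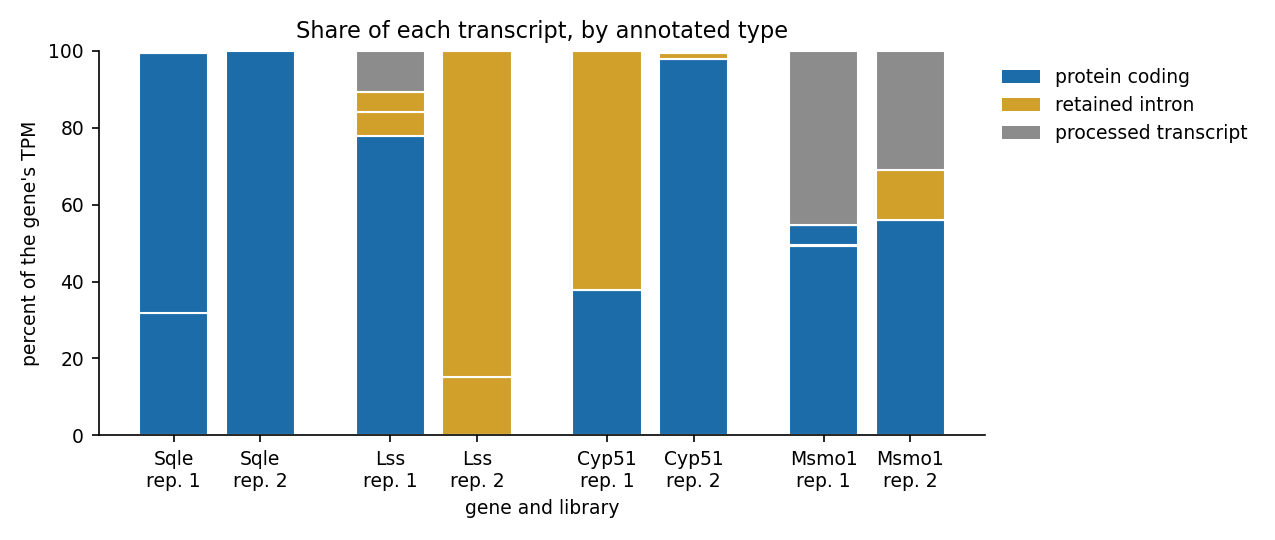
Percent of each gene's TPM assigned to its transcripts, coloured by annotated type, for the 4 members with reads on more than 1 transcript, with 1 bar per library and white lines between transcripts. The bars of Cyp51 and Lss change their main colour between the libraries and those of Msmo1 and Sqle stay mostly alike, while the bar of Lss in replicate 2 rests on 4 reads.

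The rest of the pathway was examined with a list of 23 genes that contains the members. A level of at least 1 TPM in both libraries was measured for 19 of the 23, and for 12 of the 15 that are not members. The share was 15.0% over all Ensembl genes and 27.3% over protein-coding genes. Upstream, Acat2, the cytosolic thiolase, had 73.9 and 127 TPM. Pmvk and Mvd, which act on phosphorylated mevalonate, were at 22.6 and 33.3 TPM in the first library and 35.8 and 29.8 in the other.

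Mvk, mevalonate kinase, resembled Lss in being read in replicate 1 almost alone, with 107 TPM from 4082 reads against 0.04 TPM from 1 read. Its share of reads was 3998 times higher, with an exact 95% interval of 717 to 157964 for read counting only. Idi2 and Hsd17b7, a ketosteroid reductase of the late pathway, had no read in either library. For read counting only, a share of up to 3 reads, or 0.0901 and 0.092 CPM (reads scaled to depth), remains possible. Reads amplified from 1 molecule are not independent, so that figure does not bound the RNA of these genes. A gene without reads was not detected at this depth and input, which does not show that it was absent.

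Among the late enzymes, Lbr and Erg28 were the highest that are not members. Lbr had 101 and 129 TPM, and Erg28, a scaffold for sterol enzymes, had 127 and 162. Lbr is also a receptor of the nuclear lamina, so its level does not belong to sterol synthesis alone. Ebp, the sterol isomerase, had 40.0 and 51.3 TPM. Tm7sf2, the other sterol reductase for the bond that Lbr reduces, had 44.0 and 15.3 TPM, and Nsdhl 30.0 and 12.9. Sc5d and Dhcr7, which act near the end of the pathway, were also lower in replicate 2, with Sc5d at 69.2 and 29.9 TPM and Dhcr7 at 68.9 and 35.2.

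Of the 13 genes outside the members with a mean of at least 10 TPM, 5 were more than 2-fold higher in replicate 1, among them Mvk, Tm7sf2, Nsdhl and Sc5d, and none was more than 2-fold higher in replicate 2. Over the 20 such genes of the whole pathway, 7 were higher in replicate 1 and 1 in replicate 2. Over all 6801 genes at that level, 25.8% were higher in replicate 1 and 25.2% in replicate 2. In either direction, 8 of the 20 differed by more than 2-fold, against 51.1% of all such genes. The median log2 ratio of the 20 was -0.01. Their split between the libraries was not tested, and their median absolute ratio was 0.84, below the 1.03 of all genes.

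**Figure D4:**
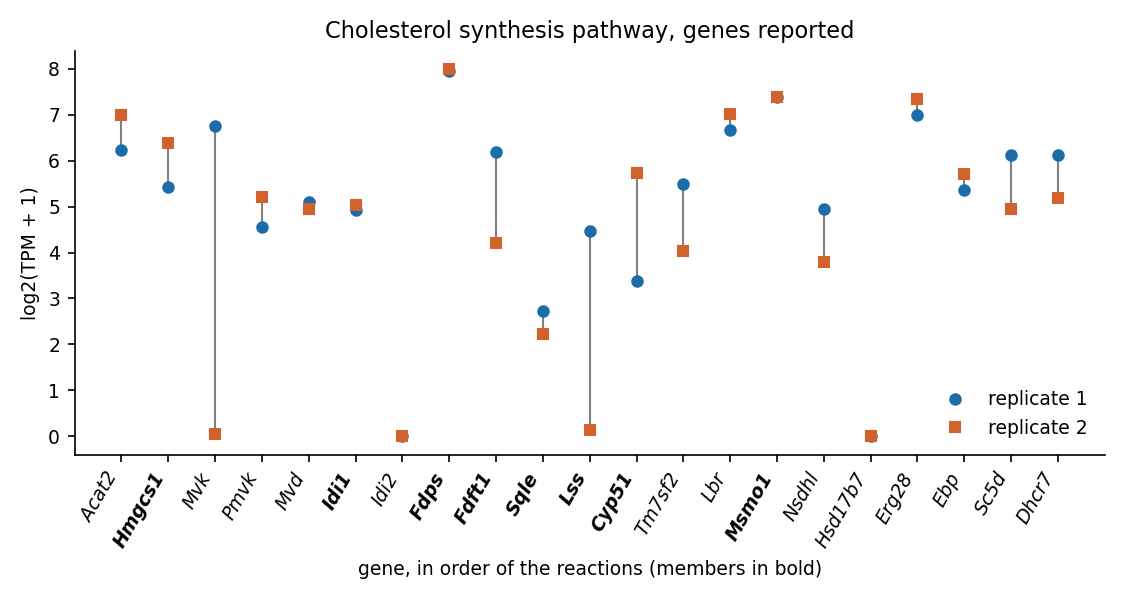
Level of the pathway genes reported here as log2(TPM + 1) in order of the reactions, with members in bold, 1 circle for replicate 1 and 1 square for replicate 2, joined by a line. Mvk and Lss lie near 0 in replicate 2, Idi2 and Hsd17b7 are at 0 in both, and Fdps and Msmo1 overlap.

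Of the regulators of the pathway, 10 of 14 measured genes were at 1 TPM or more in both libraries, beside 27.3% of protein-coding genes. Srebf2, which encodes SREBP-2, had 47.9 TPM from 6920 reads and 36.3 TPM from 5215 reads. Its escort Scap had 32.2 and 22.9 TPM. Insig1, which retains that pair in the endoplasmic reticulum when sterol is high, had 11.6 and 43.9 TPM, and Insig2 had no read against 49.4 TPM from 794 reads. These 4 were chosen after their values were seen. By level, Nfyc, a subunit of NF-Y, led the list with 113 and 67.3 TPM, followed by Mbtps2, an SREBP protease, with 7.73 and 127. The other NF-Y subunits were lower, Nfyb at 71.25 and 13.24 TPM and Nfya at 0.12 and 1.63. Mbtps1, the other SREBP protease, had 19.06 and 0.02 TPM. These were also named after their values were seen. The reads of Mbtps2, 1073 and 3937, differed less than its TPM, with effective lengths of 4692 and 1052 bases. Of the 10 regulators with a mean of at least 10 TPM, 1 was more than 2-fold higher in replicate 1 and 4 in replicate 2. Over all genes at that level, the shares were 25.8% and 25.2%.

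Of 4 measured paralogs with other roles, 1 was at 1 TPM or more in both libraries, beside 27.3% of protein-coding genes. This was Acat1, the mitochondrial thiolase, with 36.6 and 50.9 TPM, while Hmgcll1 had no read in either library.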

How the data were processed

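The authors deposited 1 table per gene and 1 per transcript for each of the 2 libraries, with expected counts (estimated reads that need not be whole), TPM, FPKM and posterior mean TPM with credibility bounds of unstated level. The percent of a gene assigned to each transcript is also as deposited. Per the labels and the listing deposited with each sample, the build is mm10 with GENCODE release M4. The aligner, quantifier and strand setting were each not given in the sources used here. Symbols, transcript types and coordinates came from release M21, which matched 42462 of 43346 Ensembl rows. Marchf6 and Faxdc2 had no match and were not analysed here. Some genes counted in the lists are not reported here by name. The 97 rows for spike-ins and 26248 with numeric names entered only the totals of TPM and counts.

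Members and lists were chosen with earlier results of these data known. Lists were the wider pathway, its regulators, sterol handling, isoprenoid users, fatty acid synthesis, paralogs, haem synthesis, the citric acid cycle and cell markers. Named genes were all members and pathway genes and, of other lists, the 3 with the highest mean TPM and up to 3 under 1 TPM in both libraries. Ratios are log2((TPM + 1) of replicate 2 over replicate 1), centred on their median over genes with a mean of at least 10 TPM (0.03 before centring). A pseudocount of 1 understates the change of low genes. A 2-fold size rule was used with no test, because the design has 1 group. Near copies were searched with blastn 2.17.0 at 90% identity over 200 bases. Code was tested on simulated data. Python 3.11.15, pandas 2.3.3, scipy 1.17.1 and matplotlib 3.10.9 were used.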

Additional observations from a re-analysis of the deposited data

How the results depend on the processing

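Other detection thresholds, units and pseudocounts, and leaving out either library, changed no count of members or pathway genes by more than 1.5 times. Without 1 of the replicates, 7 to 8 members and 19 to 21 pathway genes were at 1 TPM or more, the summed level was 593 to 607 TPM, and the median log2 level was 5.18 to 5.38. The summed level rose to 644 TPM over Ensembl genes only and to 662 TPM without globins, since fewer rows share the total. Centring on the spike-ins shifted all ratios by -0.39, gave the members a median of -0.38, and made 37.6% of the 2-fold calls over all genes higher in replicate 2, against 49.4%. The same 3 members stayed past 2-fold under every unit, pseudocount and centring tried, with Fdft1 and Lss higher in replicate 1 and Cyp51 in replicate 2. The size for Lss depended on the pseudocount (-6.76 with 0.1) and on the unit (-6.13 on CPM, counts scaled to depth), and that for Cyp51 was 3.30 on CPM and 1.92 centred on the spike-ins. The fit on coding transcripts was added after the data were seen. No paired analysis was possible because there is 1 group. With 4 reads for Lss and 275 for Sqle in replicate 2, their levels there are the least precise of the members.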

Other observations

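Genes around the pathway were measured in the same libraries. Of 18 genes of sterol uptake, transport, storage and export, 10 were at 1 TPM or more in both libraries and 4 had no read in either. Over protein-coding genes, 27.3% were at 1 TPM or more in both. Tmem97, which binds sterol, was at 216.5 TPM in the first library and 89.9 in the other, Nr1h3, the oxysterol receptor LXR alpha, 43.6 and 108, and Npc2, a lysosomal sterol carrier, 51.9 and 87.4. Npc1l1, Abcg1 and Abcg5 had no read. Of the 10 with a mean of at least 10 TPM, 2 were more than 2-fold higher in replicate 1 and 5 in replicate 2. The shares over all genes at that level were 25.8% and 25.2%.

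Of 11 other users of isoprenoids, 6 were detected in both libraries, beside 27.3% of protein-coding genes. The farnesyltransferase subunits Fntb and Fnta were at 68.3 and 28.2 TPM in the first library and 26.8 and 47.9 in the other, and Dhdds, which starts dolichol synthesis, had 31.1 and 61.9. Ggps1, which extends the product of Fdps, had no read in replicate 1 and 0.11 TPM from 7.07 reads in replicate 2, and Pggt1b had no read and 2 reads. Of 12 fatty acid synthesis genes, 7 were detected in both, to be read beside the same 27.3%. The desaturase Scd2 had 63.8 and 81.6 TPM, Acly, which makes cytosolic acetyl-CoA, 39.6 and 92.5, and Fads1 45.1 and 43.8. Scd1 had 0.24 TPM and no read, and Acacb had no read in either library.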
